A study of Rattus norvegicus with 22 samples.

Results

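The strongest open chromatin of rat prefrontal cortex, as mapped by ATAC sequencing, was a set of 5236 regions that scored high in each of 4 libraries. ATAC sequencing reads open chromatin from the places where a transposase can insert adapters into nuclear DNA. The regions were chosen in the deposited tracks by a rule: the active region held an interval called in each of the 4 libraries, and its highest summit scored 100 or more in every one. They made up 5.24% of the 99896 active regions and 10.5% of the 49737 active regions held by all 4 libraries. They are called strong shared regions below, and the remaining 44501 regions held by all 4 libraries serve as the comparison. The regions were thus chosen by their summit scores in all 4 libraries, and these scores are given as a description, with no test.

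The 4 libraries came from prefrontal cortex of male Sprague-Dawley rats, 1 library each for control, WIN, cocaine and WIN+cocaine, and all 4 were made from nuclei of flash frozen tissue. The series concerns cannabinoid exposure in adolescence and the response to cocaine, and WIN is the label of the cannabinoid-exposed groups. Doses, ages, times, the number of animals behind a library and what the control animals received were not stated in the labels. With 1 library a treatment, no difference between treatments has a replicate check, and none was tested. The tissue is a mixture of cells, so more cells with a region open and a region more often open in each cell cannot be told apart. The tracks come without gene names and no annotation of their build was used, so neither the genes beside these regions nor marker regions of cortical cells were analysed here.

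In chromatin, nucleosomes block most DNA from the transposase, and insertions gather where they have been displaced. In brain as in other tissues, such places include promoters of active genes, enhancers and sites bound by insulator proteins such as CTCF. Promoters of genes used by nearly every cell and insulator sites tend to be open in many cell types, whereas many enhancers are open in few, so in mixed tissue a tall peak is often one that many of the cells share. Cocaine blocks the reuptake of dopamine, and cannabinoid agonists act on the CB1 receptor of presynaptic terminals. Both are known to alter signalling in prefrontal cortex.

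The summit scores of the strong shared regions had a similar spread in the 4 libraries. The median score was 155 for control and for WIN, 170 for cocaine and 165 for WIN+cocaine. The other regions held by all 4 libraries had medians of 43, 43, 47 and 48 in that order. The middle part of the strong shared regions, between the 25th and 75th percentiles, ran from 129 to 203 in control, 127 to 201 in WIN, 138 to 224 in cocaine and 135 to 213 in WIN+cocaine. The highest scores were 1369, 1217, 748 and 794. Of the summed summit score of a library, the strong shared regions held 25.4% for control, 24.9% for WIN, 24.2% for cocaine and 23.3% for WIN+cocaine.

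**Figure D1:**
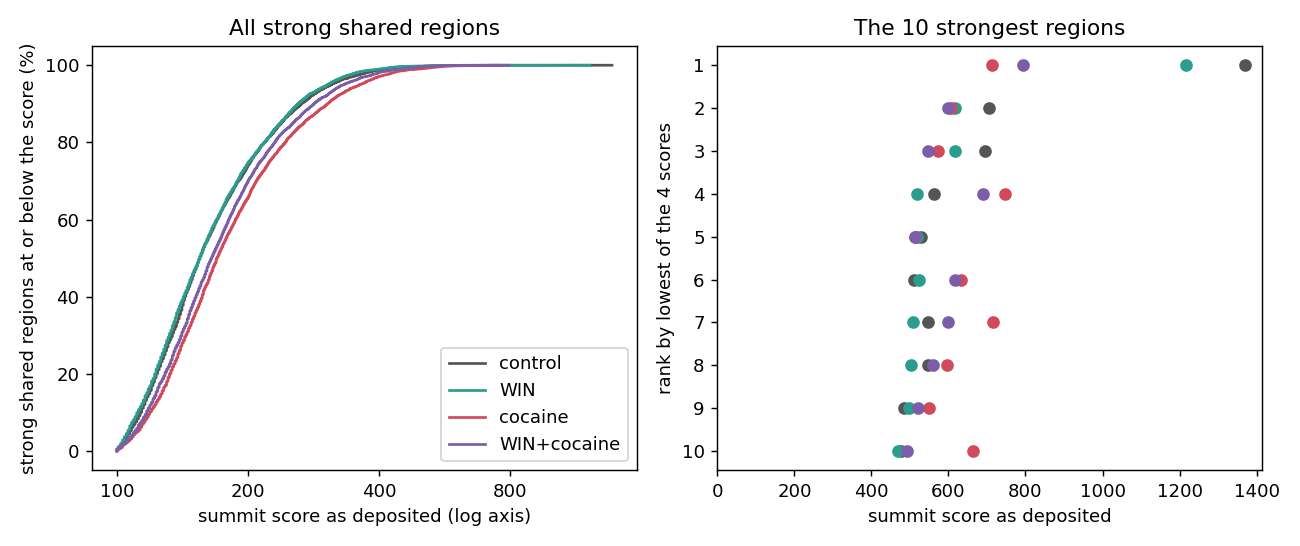
Summit scores of the strong shared regions as deposited. Left, the percentage of the 5236 regions at or below each score (log axis), 1 line per library; right, the scores of the 10 strongest regions in each library, ranked by the lowest of the 4. The cocaine and WIN+cocaine lines lie to the right of control and WIN, with medians of 170 and 165 against 155 and 155, and the first region stands apart in control (1369) and WIN (1217).

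Ranked by the lowest of its 4 scores, the strongest region was chr2:198589704-198590343, 640 bp wide. It scored 1369 (control), 1217 (WIN), 714 (cocaine) and 794 (WIN+cocaine), so both cocaine-treated libraries lay below both others. The second was chr12:54371-55350, with 704 (control), 618 (WIN), 606 (cocaine) and 598 (WIN+cocaine). The third, chr2:110305508-110305870, was only 363 bp wide and scored 694, 617, 573 and 546 in the same order. These 3 regions scored highest in control, although the median strong shared region scored higher in both cocaine-treated libraries.

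With the scores as deposited, other regions of the top 10 were highest in cocaine. The region chr17:3769867-3770395 scored 563 (control), 519 (WIN), 748 (cocaine) and 689 (WIN+cocaine). For chr15:44410981-44412129 the scores were 546, 507, 715 and 599, and for chr8:1449853-1450886 they were 510, 523, 633 and 617. A neighbour of the latter, chr8:1502497-1503238, scored 476, 469, 664 and 493, so that cocaine alone stood out. The region chr1:174671-175183 scored 528, 518, 514 and 512, the narrowest range of the 10 as deposited. The regions chr4:98648003-98649032 (547, 504, 595 and 560) and chr2:52426958-52427744 (485, 497, 550 and 521) were highest in cocaine as well, by less. For these 2 that order depended on the scale. Once each score was divided by the library's median, as described below, the first had a log2 ratio of cocaine to control of -0.028. The second had 0.033, beside 0.035 for WIN to control.

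The libraries named largely the same regions as their tallest. Of the 100 highest regions of each library among those held by all 4, 61 were common to all, and pairs of libraries shared 74 to 79. Of the 1000 highest, 715 were common to all. Pairs shared 809 to 855 of these, with cocaine and WIN+cocaine sharing the most and WIN and WIN+cocaine the fewest. Of the 100 highest, however, cocaine and WIN+cocaine shared 74, the low end of the range. The order of the pairs thus depended on the number of regions taken.

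The threshold fell in a continuous range of scores. Just inside it lay chr1:8381216-8381743 with 119 (control), 100 (WIN), 130 (cocaine) and 123 (WIN+cocaine), and chr1:43591153-43591723 with 100, 101, 114 and 118. The other 3 named there, chr1:23626707-23627149, chr1:31121176-31122396 and chr1:70210583-70210921, likewise had a lowest score of 100. Just outside lay chr1:7769303-7769995 with 111, 99, 116 and 126, and chr1:102899990-102900532 with 99, 106, 115 and 123. The other 3 outside, chr1:15577497-15578619, chr1:59700737-59701517 and chr1:72311617-72312287, also had a lowest score of 99. Regions tied at 100 or at 99 were taken in order of chromosome and start, which is why all those named lie on chromosome 1. A further 1246 regions reached 100 in 3 of the 4 libraries. The library that missed was WIN in 498 of these, control in 389, WIN+cocaine in 217 and cocaine in 142. Only 34 regions reached 100 in any library without being held by all 4.

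The typical score was higher in the cocaine-treated libraries, in strong and weak regions alike. The median over the 49737 regions held by all 4 libraries was 46 for control and WIN and 51 for cocaine and WIN+cocaine. How the authors scaled the scores was not stated. For ratios between libraries each score was therefore divided by the library's median over those regions, and the result is called the scaled score. On that scale the threshold of 100 stood at 2.17 in control and WIN and at 1.96 in cocaine and WIN+cocaine, so that near the threshold the rule admits lower scaled scores in the latter pair.

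On the scaled score the strong shared regions differed little between libraries. The highest of the 4 scaled scores divided by the lowest had a median of 1.245 and a 95th percentile of 1.52, beside 1.48 and 2.11 in the other regions held by all 4 libraries. The SD of the log2 ratio over strong shared regions was 0.20 between control and WIN and 0.20 between cocaine and WIN+cocaine. It was 0.23 to 0.25 for the other 4 pairs of libraries. In the other regions it ran from 0.38 to 0.44. Few strong shared regions therefore passed a 1.5-fold ratio. The rule required a high score in all 4 libraries, which by itself limits how far they can differ, and nothing is read from these shares.

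In cocaine against control, 75 of 5236 strong shared regions had scaled scores at least 1.5-fold apart, or 1.43%, where the share over all regions held by the 4 libraries was 14.6%. Of these, 13 were higher in cocaine (beside 6.95% of all regions) and 62 lower (beside 7.61%). With the scores as deposited the division turned, to 103 higher (beside 13.0% of all regions) and 15 lower (beside 3.88%), so all regions leaned the same way on that scale. With an equal number of highest regions taken from each library in place of the threshold it was 13 and 45. The median ratio was 0.993 and the central 90% ran from 0.749 to 1.27.

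The regions farthest below control in cocaine were chr14:113968129-113968995, the strongest region on chromosome 2 named above, and chr9:12391577-12391849. The first scored 247 (control), 179 (WIN), 127 (cocaine) and 164 (WIN+cocaine), a log2 ratio of -1.11 on the scaled score. The region on chromosome 2 had -1.09, or -0.64 after quantile normalization. The region on chromosome 9 scored 182, 161, 105 and 142, a log2 ratio of -0.94, and at 273 bp it was the narrowest of all strong shared regions. In each of the 3, both cocaine-treated libraries lay below both others. Farthest above control were chr7:12310999-12311527 with 110, 126, 205 and 144, chr16:49862990-49863518 with 102, 164, 187 and 173, and chr1:197982403-197982961 with 187, 210, 337 and 319. Their log2 ratios were 0.75, 0.73 and 0.70. The region on chromosome 16 was as high in WIN as in the cocaine-treated libraries, so that control alone was low there.

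In WIN against control, 25 strong shared regions passed 1.5-fold, or 0.477%, with a share of 13% over all regions held by the 4 libraries. Of these, 11 were higher in WIN (beside 6.52%) and 14 lower (beside 6.49%). The median ratio was 0.990, and the deposited and scaled scores give the same ratios here because both libraries had a median of 46. The largest ratio belonged to chr19:26006650-26007293, which scored 131 (control), 231 (WIN), 197 (cocaine) and 156 (WIN+cocaine). The next was chr9:29647700-29648345 with 103, 180, 131 and 112, followed by chr1:125124322-125124976 with 103, 170, 131 and 127. In the last pair WIN was high and WIN+cocaine was not. Lowest in WIN were chr2:95128367-95128945 (190, 113, 189 and 206), chr14:17469088-17469668 (168, 100, 177 and 152) and chr2:128462989-128464084 (199, 120, 140 and 112). The first of these was low in WIN alone, and the last was high in control alone.

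In WIN+cocaine against WIN, 139 strong shared regions passed 1.5-fold, or 2.65%, where the share over all regions held by the 4 libraries was 16.5%. They were divided into 38 higher in WIN+cocaine (beside 8.07%) and 101 lower (beside 8.42%). The division was 153 and 22 with the scores as deposited, beside 14.7% and 4.40% of all regions. After quantile normalization it was 54 and 74, beside 8.42% and 8.26%. It was 61 and 55 when each library was scaled by its median over strong shared regions, beside 10.2% and 6.52%. An equal number of highest regions from each library gave 41 and 68. The side that held more of the calls thus depended on the scale. The lowest ratio was that of chr1:11909896-11911352, a region 1457 bp wide with scores of 222 (control), 256 (WIN), 156 (cocaine) and 127 (WIN+cocaine) and a log2 ratio of -1.16. It was followed by chr17:44757893-44758748 (211, 214, 131 and 117) and chr3:43182697-43183662 (163, 197, 100 and 115), with log2 ratios of -1.02 and -0.93. The highest were chr11:25010923-25011559 (151, 102, 206 and 205), chr9:119135478-119136140 (148, 103, 157 and 202) and chr17:63336798-63337398 (145, 109, 187 and 211). In these last 3, WIN had the lowest score of the 4 libraries.

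In WIN+cocaine against cocaine, 30 strong shared regions passed 1.5-fold, or 0.573%, beside 11.7% over all regions held by the 4 libraries. They were divided into 9 higher (beside 6%) and 21 lower (beside 5.72%). After quantile normalization the division was 11 and 14, beside 5.64% and 5.58% of all regions. It was 11 and 13 when scaled by the strong shared regions, beside 7.08% and 4.48%. The highest pair lay close together on chromosome 7. The region chr7:109260059-109260598 scored 126 (control), 152 (WIN), 106 (cocaine) and 238 (WIN+cocaine), and chr7:109204684-109205847 scored 209, 286, 172 and 326. In both, cocaine was the lowest library and WIN+cocaine the highest. The third was chr14:94374588-94375268, with 188, 179, 125 and 201. Lowest were chr12:17251705-17252286 (148, 135, 211 and 119), chr3:5574824-5575404 (141, 117, 169 and 104) and chr4:157680147-157680859 (150, 142, 222 and 138), each of them highest in cocaine.

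Cocaine against control and WIN+cocaine against WIN share no library, so the ratios were set side by side for each region. Across the 5236 strong shared regions the log2 ratios of the 2 contrasts had a Pearson's r of 0.286, beside 0.128 across the other regions held by all 4 libraries. Regions within a library are not independent replicates, each axis rests on 1 library a treatment, and no p is given. The WIN ratios without and with cocaine, which also share no library, had r of -0.048 in the strong shared regions and -0.044 in the other regions. With an equal number of highest regions from each library these values were 0.270 and -0.044. Paired the other way, cocaine against WIN and WIN+cocaine against control had r of 0.329 in the strong shared regions and 0.171 in the other regions. The r of 0.286 was thus not particular to contrasts matched by WIN. The rule used the scores of all 4 libraries, so nothing is read from the difference in r between strong shared and other regions.

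**Figure D2:**
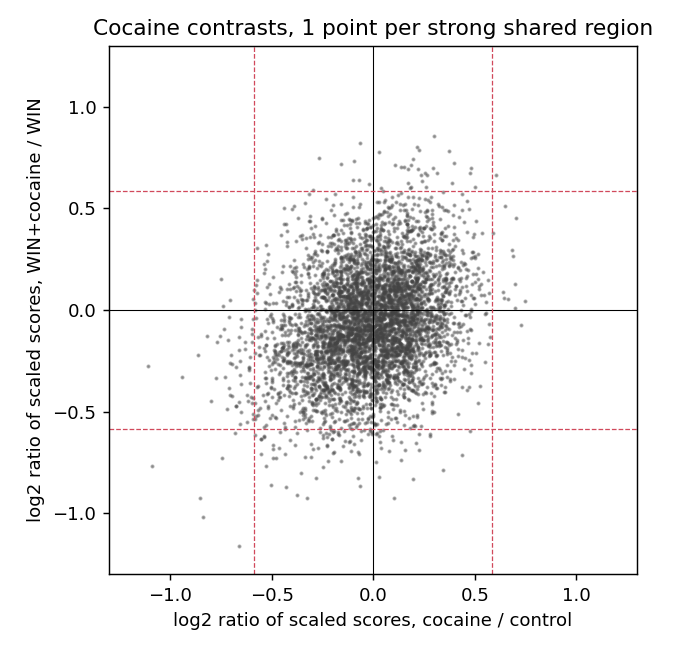
Log2 ratios of scaled scores for the 5236 strong shared regions, cocaine over control on the x axis and WIN+cocaine over WIN on the y axis, 1 point per region; dashed lines mark 1.5-fold. The cloud leans weakly along the diagonal (r = 0.286), and 6 regions lie past both lower lines and 1 past both upper lines.

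At a ratio of at least 5 to 4, 160 strong shared regions were lower in both cocaine contrasts (3.06%, where all regions held by the 4 libraries gave 6.5%) and 46 were higher in both (0.879%, beside 5.16%). The 2 contrasts went opposite ways in 20 regions higher without WIN and lower with it (0.382%, beside 3.59%) and in 15 regions lower without WIN and higher with it (0.286%, beside 3.76%). At 1.5-fold, 6 were lower in both (0.115%, beside 1.2%), 1 was higher in both (0.0191%, beside 0.824%) and 0 were opposed in either way (beside 0.503% and 0.485%). With an equal number of highest regions from each library, the 160 and 46 were 121 and 46, and at 1.5-fold 3 were lower and 1 was higher in both. For the WIN contrasts at a ratio of 5 to 4, 7 were higher in both and 21 lower in both, beside 3.49% and 3.4% of all regions, and 21 and 19 went opposite ways, beside 4.09% and 4.17%. At 1.5-fold 0 were higher in both and 0 lower in both, beside 0.474% and 0.388%, and 0 were opposed in either way, beside 0.553% and 0.595%.

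The following regions were singled out after their values were seen. Lower in both cocaine contrasts, by the smaller of the 2 log2 ratios, were the regions on chromosomes 3, 17 and 2 already given. Their log2 ratios without and with WIN were -0.85 and -0.93, -0.84 and -1.02, and -1.09 and -0.76. The 1 region higher by 1.5-fold in both was chr15:17508664-17509314, with 149 (control), 158 (WIN), 251 (cocaine) and 278 (WIN+cocaine) and log2 ratios of 0.60 and 0.67. It was followed by chr9:4526209-4526769 (152, 137, 264 and 217) and chr14:113939887-113940664 (114, 108, 179 and 182). The latter lay near the region of chromosome 14 that was lowest in cocaine against control, so the same stretch held both a high and a low region of the cocaine-treated libraries.

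The order of the 4 scaled scores was then read without any fold. Both cocaine-treated libraries lay above both others in 892 strong shared regions, or 17.0%, and below them in 1420, or 27.1%. Over all regions held by the 4 libraries these shares were 19.1% and 21.2%. The lower side held more on this scale. When libraries were scaled by the strong shared regions the counts were 1173 above and 1192 below, beside 22.3% and 18.2% of all regions. With the scores as deposited they were 2127 and 523, beside 32.5% and 9.92%, and with an equal number of highest regions from each library 904 and 1202. Both WIN-exposed libraries lay above control and cocaine in 443 regions, or 8.46%, and below them in 960, or 18.3%, where all regions gave 13.2% and 14.2%. More strong shared regions lay below than above under the same alternatives, at 565 above and 798 below when scaled by the strong shared regions, 418 and 767 as deposited, and 423 and 935 with an equal number per library. Over all regions the first of these scales gave 15.1% above and 12.7% below, the opposite lean, and the deposited scores 11.7% and 12.6%. The order was not counted after quantile normalization. There the single WIN ratios of strong shared regions were nearly even. WIN was above control in 2603 and below it in 2552, and WIN+cocaine was above cocaine in 2535 and below it in 2651. WIN+cocaine had the highest scaled score of the 4 in 838 strong shared regions, against 1509 for cocaine, 1455 for control and 1434 for WIN. With the scores as deposited the highest was cocaine in 2385, WIN+cocaine in 1331, WIN in 770 and control in 750. The highest library was not counted over all regions held by the 4 libraries, so nothing is read from these counts. They also depend on the scale. The median ratio of WIN+cocaine to cocaine in strong shared regions was 0.960 on the scaled score. It was 0.989 when scaled by the strong shared regions and 0.997 after quantile normalization.

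The called interval holding the highest summit was narrower in both cocaine-treated libraries at many strong shared regions, a measure that the rule did not use directly. The interval at a strong shared region had a median width of 660 bp for control, 672 bp for WIN, 594 bp for cocaine and 602 bp for WIN+cocaine. In 3863 of 5236 regions (73.8%) it was narrower in cocaine than in control, with a median ratio of 0.940, where all regions held by the 4 libraries gave 55.9% and 0.974. In 3861 (73.7%) it was narrower in WIN+cocaine than in WIN, with a median ratio of 0.938, beside 55.2% and 0.977. Between WIN and control, and between WIN+cocaine and cocaine, the median ratios were 1.01 and 1.01. Both cocaine-treated intervals were narrower than both others in 2472 strong shared regions, or 47.2%, where the share over all regions held by the 4 libraries was 25.2%. Both were wider in 307, or 5.86%, beside 15.2%. For the WIN-exposed pair the corresponding shares were 8.23% narrower and 14.4% wider, beside 12.3% and 16.2%.

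The share with narrower intervals was larger in taller regions. All regions held by the 4 libraries were split by their mean scaled score into 10 classes of like size. Both cocaine-treated intervals were narrower in 17.3% of class 1, the lowest, in 21.7% of class 5, in 33.8% of class 9 and in 47.1% of class 10, which held 4749 of the strong shared regions. Both were wider in 17.4%, 17.8%, 10.8% and 5.99% of the same classes. Within the strong shared regions split into 4 classes of 1309 by scaled score, the share narrower was 42.4% in the lowest and 54.5% in the highest. The cocaine-treated libraries also had more intervals in all. The tracks listed 69639 intervals for control, 70942 for WIN, 76590 for cocaine and 76884 for WIN+cocaine, and the part of this difference in the widths was not tested.

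**Figure D3:**
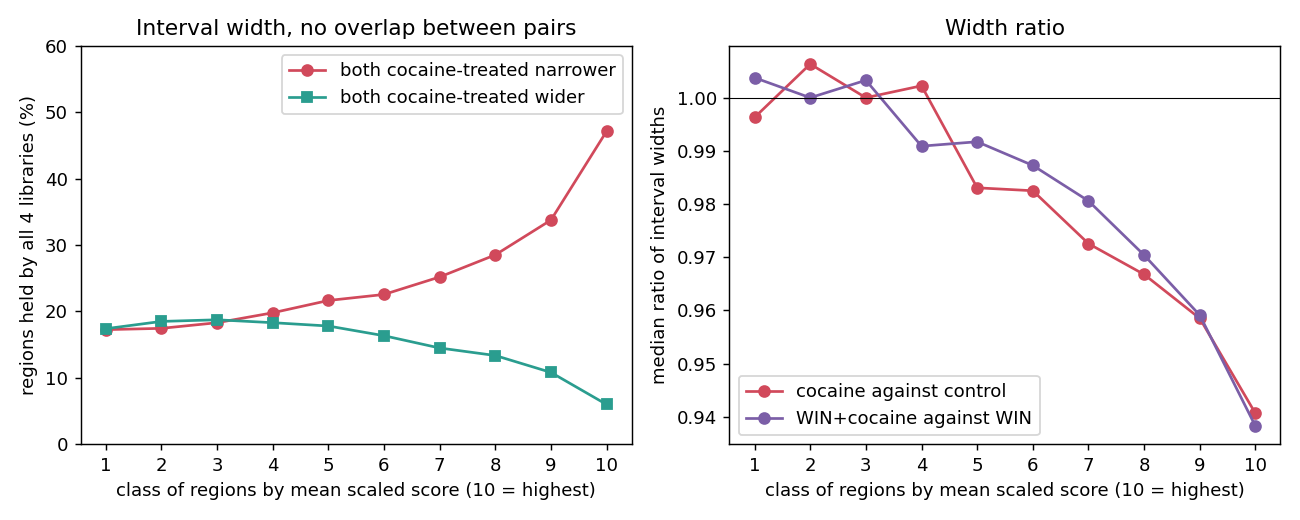
Interval widths in the 49737 regions held by all 4 libraries, split into 10 classes by mean scaled score (x axis, 10 highest). Left, the percentage of regions in which both cocaine-treated intervals were narrower or wider than both others; right, the median ratio of widths in each of 2 contrasts that share no library. The share narrower ran from 17.3% in the lowest class to 47.1% in the highest, and the ratios reached 0.941 and 0.938.

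A related difference was seen where a region was called as 2 or more intervals. This happened in 271 strong shared regions in at least 1 library and in 4 regions in every library. The count was 56 (1.07%) for control, 54 (1.03%) for WIN, 175 (3.34%) for cocaine and 155 (2.96%) for WIN+cocaine. The other regions held by all 4 libraries were also split more often in the cocaine-treated libraries, in 0.863%, 0.807%, 1.86% and 1.64% in that order. In 51 regions, or 0.974%, both cocaine-treated libraries were split and the other 2 were not, where all regions held by the 4 libraries gave 0.479%. The reverse, a split in control and WIN alone, occurred in 4 strong shared regions, beside 0.0503% of all regions. The regions with the most summits over the 4 libraries had 9 each: chr2:57675490-57677267, chr7:60742650-60744037 and chr17:37614760-37616230. The first was called as 2 (control), 1 (WIN), 3 (cocaine) and 3 (WIN+cocaine) intervals. Leaving out every split region gave both cocaine-treated intervals narrower in 46.3%, where all regions held by the 4 libraries gave 24.4% in the same way.

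Strong shared regions were also wide as active regions, with a median width of 729 bp against 467 bp in the other regions held by all 4 libraries. Called width follows peak height, so it is no independent trait here. The widest were chr9:50556928-50559136 at 2209 bp, chr6:73436315-73438454 at 2140 bp and chr2:151683149-151685025 at 1877 bp. The first scored 163 (control), 153 (WIN), 151 (cocaine) and 158 (WIN+cocaine), and the third scored 308, 336, 372 and 403. At the other end, 18 strong shared regions were under 400 bp. Singled out after their values were seen, the 3 tallest of these were the region on chromosome 2 in the top 10, chr10:75365165-75365521 with 626, 593, 435 and 474, and chr9:12348764-12349113 with 213, 203, 204 and 180. The first 2 thus paired a small width with scores above the 95th percentile of the strong shared regions in every library, which was 311 for control, 305 for WIN, 361 for cocaine and 332 for WIN+cocaine, and all 3 had log2 ratios below 0 for cocaine against control, at -0.43, -0.67 and -0.21.

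The cocaine ratios varied with this width. Active regions are merged over the libraries, and the median interval was wider in control and WIN, so the width classes are not independent of the libraries compared. In the 1008 strong shared regions of 500 to 600 bp the median log2 ratio of cocaine to control was 0.05, and 57.6% of regions were above 0. In the 694 regions of 1000 bp or more it was -0.07, and 37.6% were above 0. WIN+cocaine against WIN gave -0.01 and -0.09 in the same classes, with 48.9% and 32.3% above 0. The class of 500 to 600 bp had the highest median of cocaine to control, and both narrower classes lay below it, at 0.01 in the 235 regions of 400 to 500 bp and at -0.15 in the 18 regions under 400 bp. The ratio of WIN to control was nearly level, at -0.02 and -0.02 in the classes of 500 to 600 bp and of 1000 bp or more. With an equal number of highest regions from each library the cocaine medians were 0.06 and -0.06, and those of WIN+cocaine against WIN 0.02 and -0.09. The other regions held by all 4 libraries showed the same lean between these 2 classes, with medians for cocaine against control of -0.03 at 500 to 600 bp and -0.18 at 1000 bp or more. Their narrower classes did not lie lower, with 0.04 at 400 to 500 bp and 0.04 under 400 bp. The quartiles of single strong shared regions were far wider than these shifts. For cocaine against control they ran from -0.11 to 0.20 at 500 to 600 bp and from -0.24 to 0.08 at 1000 bp or more.

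The position of the summit is a further measure that the rule did not use, although it can be read more exactly where the signal is high. Summits are given on a coarse grid, with 98.8% of positions at whole multiples of 16 bp. The distance between the outermost of the 4 libraries' highest summits had a median of 48 bp in the strong shared regions and 64 bp in the other regions held by all 4. All 4 summits fell on the same position in 1017 strong shared regions, or 19.4%, beside 6.04% of the other regions, and within 64 bp in 76.4%, beside 54.6%. The outermost summits were over 200 bp apart in 109 of 5236 strong shared regions and in 2503 of the 44501 other regions. The share of the 4 intervals' joint span that all 4 covered had a median of 81.3%, beside 66.3% in the other regions.

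**Figure D4:**
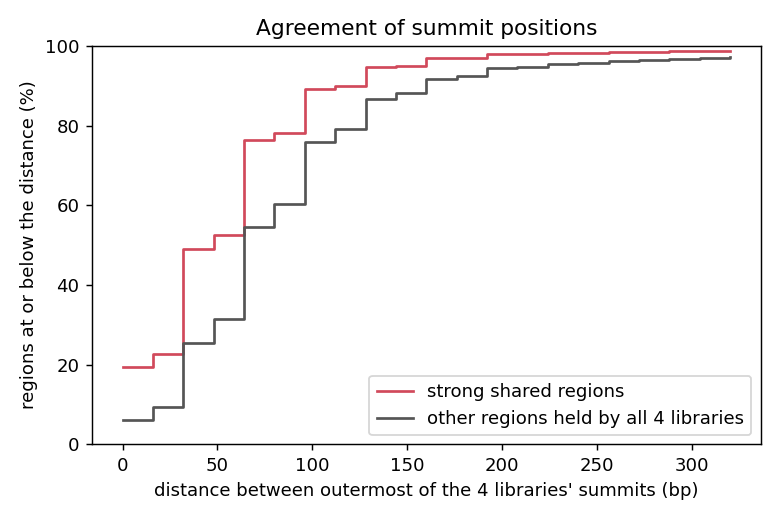
Distance in bp between the outermost of the 4 libraries' highest summits (x axis) against the percentage of regions at or below it, for 5236 strong shared regions and 44501 other regions held by all 4 libraries. The line of the strong shared regions lies above the other throughout, at 19.4% against 6.04% for a distance of 0 and 76.4% against 54.6% at 64 bp.

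Strong shared regions were found on chromosomes 1 to 20 and X, and on none of the 6 Y-linked regions held by all 4 libraries. Their share of the regions held by all 4 was highest on chromosome 20, at 160 of 1267 or 12.6% (95% Wilson interval 10.9% to 14.6%), and on chromosome 1, at 571 of 4718 or 12.1% (11.2% to 13.1%). It was lowest on chromosome 12, at 56 of 778 or 7.20% (5.58% to 9.23%), and on chromosome 10, at 119 of 1456 or 8.17% (6.87% to 9.69%). On chromosome X it was 102 of 1118 or 9.12% (7.57% to 11.0%), beside 10.6% (10.3% to 10.8%) on the autosomes. These intervals treat regions as independent and cover counting error only. Chromosome X held 1.95% of the strong shared regions and 2.28% of the other regions. Over all regions held by the 4 libraries the median score on X was 41 for control, 40 for WIN, 46.5 for cocaine and 47 for WIN+cocaine. On the autosomes together it was 46, 46, 51 and 51. Low medians were not particular to X, with 43, 44.5, 44 and 45 on chromosome 10 and 43, 43, 45 and 43 on chromosome 12. Both lay above X in control and WIN and below it in the cocaine-treated libraries. Males carry a single X, and its part in these scores was not tested.

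The ratios between libraries also differed from chromosome to chromosome. For WIN+cocaine against cocaine the median log2 ratio of strong shared regions was -0.22 on chromosome 12 and -0.12 on chromosome 1, and on the others it ran from -0.08 to -0.01. The other regions held by all 4 libraries had -0.11 on chromosome 12 and -0.03 on chromosome 1. For WIN+cocaine against WIN the lowest medians were -0.20 on chromosome 12, -0.15 on chromosome 10 and -0.12 on chromosome 1. In the other regions these chromosomes had -0.15, -0.15 and -0.03. Chromosome X stood at the upper end, with 0.09 for cocaine against control and 0.03 for WIN+cocaine against WIN. The other regions of X had 0.04 and 0.06, so a high X was not particular to the strong shared regions. The ranges between the 25th and 75th percentiles of single regions overlapped between all chromosomes in the 2 contrasts plotted, and the differences were not tested.

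**Figure D5:**
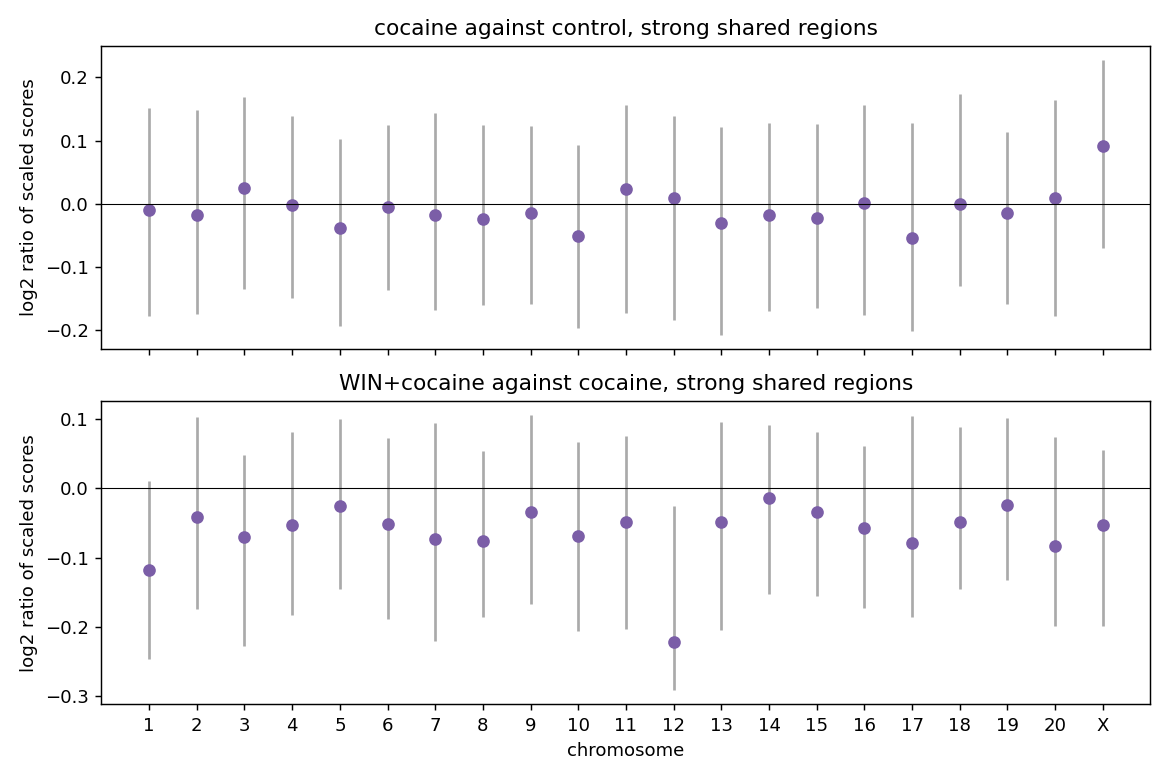
Median log2 ratio of scaled scores in the strong shared regions of each chromosome (points) with the 25th to 75th percentiles (lines), for cocaine against control (top) and WIN+cocaine against cocaine (bottom). Chromosome X is highest in the upper plot at 0.09, and chromosomes 12 and 1 are lowest in the lower plot at -0.22 and -0.12.

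Most strong shared regions stood apart from each other. The median gap from a strong shared region to the nearest other one was 81293 bp, and 484 of them, or 9.24%, had another within 10 kb. The gap to the nearest region of any height held by all 4 libraries was 13996 bp, beside 13727 bp for the other regions, so they lay about as close to open chromatin in general. Their nearest neighbours were more often tall. Where the nearest region held by all 4 libraries was within 2 kb, it was itself a strong shared region for 34.5% of the 449 strong shared regions with such a neighbour and for 7.96% of the 3720 other regions. Within 10 kb the shares were 21.8% and 8.92%.

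The 484 regions formed 216 pairs, 12 runs of 3 and 3 longer runs in which each region lay within 10 kb of the next. The longest held 7 strong shared regions over 30668 bp on chromosome 17, from 43791231 to 43821898. The tallest of the 7, chr17:43808306-43808912, scored 235 (control), 216 (WIN), 208 (cocaine) and 234 (WIN+cocaine), and the lowest, chr17:43797037-43797507, scored 111, 129, 107 and 111. In cocaine against control 6 of the 7 were lower on the scaled score, with log2 ratios from -0.38 to -0.18, and chr17:43807344-43807803 stood at 0.01. Over all regions held by the 4 libraries, 25337 of 49737 were lower in cocaine. Neighbouring regions share a stretch of the genome and are not independent. The next run held 5 regions over 25801 bp on the same chromosome, from 44738156 to 44763956. It included the region chr17:44757893-44758748 described above, whose log2 ratio of -0.84 for cocaine against control was not shared by the other 4 of that run, at -0.21 to 0.06. A run of 4 lay on chromosome 19 from 26092455 to 26107010, the chromosome that also holds the region with the largest ratio of WIN to control. All 4 of its regions were higher in WIN than in control, with log2 ratios from 0.12 to 0.50, where 23631 of 49737 regions held by the 4 libraries were higher. This run was chosen after its values were seen, and nothing is read from its shared direction.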

How the data were processed

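ATAC libraries of prefrontal cortex were analysed, 1 each for control, WIN, cocaine and WIN+cocaine; groups came from sample titles and track names. The authors deposited 1 track file with summits, intervals and merged active regions; each summit carries a whole-number score, 1 per interval, and summits and intervals are listed for each library separately, per the file headers. The submitters' processing notes name the aligner BWA and the peak caller MACS2 2.1.0. The genome build, transposase shift, score scaling and depth were not stated. Coordinates follow the deposited tracks, with starts counted from 1. The gene table of FPKM values and the RNA libraries were not used here, since regions could not be paired with genes, and no sequences were read for the same reason.

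Each interval was assigned to the active region it overlaps, and the highest summit of each library was taken. Scores were scaled by each library's median over regions held by all 4 libraries, and a ratio was called at 1.5-fold. Named regions were the 10 highest, 5 on each side of the threshold, the 3 most extreme in each direction of each ratio, the 3 widest, the 3 with most summits and the longest run within 10 kb. Ties were ordered by chromosome and start. Regions described as singled out, and the runs of 5 and 4, were chosen after their values were seen. Wilson intervals cover counting error only. The regions, rules and lists were chosen with earlier results of these data known. No test was made, since no treatment had a second library. Functions were tested on simulated data. Python 3.11.15, pandas 2.3.3, numpy 2.4.6 and scipy 1.17.1 were used.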

Additional observations from a re-analysis of the deposited data

How the results depend on the processing

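Intervals wholly inside the region gave the same values. With an equal number of highest regions per library (6761), 4919 regions were chosen, 4888 of them the same, the counts past 1.5-fold stayed within 1.5 times (58, 25, 109 and 23, in the order of the comparisons in the next sentence), and the share within 10 kb of another (8.62%) and the share with both cocaine-treated intervals narrower (47.2%) stayed within their counting intervals. With a threshold of 80 there were 7876 regions, with 177 (cocaine against control), 81 (WIN against control), 324 (WIN+cocaine against WIN) and 95 (WIN+cocaine against cocaine) past 1.5-fold, a summit spread of 64 bp, a width of 688 bp, 12.8% within 10 kb of another and 43.4% with both cocaine-treated intervals narrower. With a threshold of 120 there were 3670 regions, with 33, 7, 49 and 13 past 1.5-fold in the same order, a width of 755 bp, 6.19% within 10 kb of another and 49.6% narrower. A limit of 5 to 4 gave 841, 554, 1125 and 645, and a 2-fold limit 2, 0, 2 and 1. Scores as deposited gave 118 for cocaine against control, beside 16.8% of all regions held by the 4 libraries. Within 50 kb of another lay 37.1% and within 2 kb 3.04%. The cause of these shifts was not tested. The 24 extreme ratios kept their sign in all 72 alternatives of scale. They had been chosen as the largest ratios, and some alternatives leave a ratio unchanged because 2 libraries have equal medians. The kept sign is therefore no check on them. Scaling by the strong shared regions, and all alternatives for interval widths, were chosen after the data were examined. No paired analysis was possible because each treatment had 1 ATAC library and no replicate number. Depth is unknown, so small ratios between libraries cannot be told from counting error.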
